A study of Mus musculus with 18 samples.

Results

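The integrins of leukocytes are described here by 10 genes: the alpha chains Itgam, Itgax, Itgal, Itgav, Itga4, Itga5 and Itga6 and the beta chains Itgb2, Itgb1 and Itgb7. The genes were given as a list of names, with no threshold on a measured value. Of the 20393 probe sets annotated to 1 gene alone, 21 belonged to these 10 genes of 12394 in all. Where a gene had several, the probe set of highest mean level was used. 5 of the genes had 1 probe set, and the 11 further probe sets of the other 5 genes served as a check. All 10 genes passed the filter for testing, which asked for a level above the array's median gene on at least 2 arrays. Itgb7 was above that median on 7 arrays, Itga4 on 13, Itgal on 17 and the remaining genes on all 18.

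The cells were dendritic cells grown from the bone marrow of C57BL/6 mice aged 6 to 8 weeks, in medium with supernatant of B16 tumor cells that make GM-CSF, and each array was hybridised with RNA of 1 condition and time. The first condition was wild type cells given 1 µg/ml smooth lipopolysaccharide (LPS), the bacterial cell wall component that dendritic cells sense through TLR4 and its helper CD14. The second was wild type cells given the same LPS in medium with EGTA at 2 mM, a chelator that takes up the calcium outside the cells. The third was cells of Cd14-/- C57BL/6 mice given smooth LPS at a concentration that the labels do not state. Each condition had 1 array without LPS and 1 each after 2, 4, 6, 12 and 24 h of LPS. The design text of the study sets both interventions against plain LPS to separate effects of calcium flux, and its title names NFAT, a transcription factor that calcium activates. The unstimulated array of the EGTA series is named for EGTA, but the treatment described for it contains none. The unstimulated cells were collected 24 h after plating, so only the 24 h LPS arrays match them in time since plating. The cultures were accepted for use by surface CD11c, which is the product of Itgax.

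Integrins are cell surface receptors made of 1 alpha and 1 beta chain that bind matrix proteins or counter-receptors on other cells and couple them to the actin cytoskeleton. The beta2 chain pairs with the alpha chains of Itgam, Itgax and Itgal to form the leukocyte-restricted receptors Mac-1 (the complement receptor CR3), CD11c/CD18 and LFA-1. The beta1 chain serves the fibronectin and laminin receptors, and the beta7 chain pairs with alpha4 or alphaE in receptors of gut-homing and epithelium-resident leukocytes. Dendritic cells that mature after a bacterial stimulus change their adhesion as they leave the tissue for the lymph node. Integrins need divalent cations to bind ligand. Adhesion was not measured here, only mRNA.

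The promoters of 4 members are shown because Itgam and Itgax are neighbours on the chromosome and both fell under LPS, while Itga5 and Itgb7 had the largest rise and the largest fall among the 10. They are RefSeq sequences of GRCm38.p6, from 250 bases before to 50 after the start of the gene, and 7 of the 10 genes had such a window. Capitals mark matches on either strand to 4 short motifs: GAGGAA (the core bound by PU.1, a myeloid regulator), GGAAGT (an ETS family core), GGAAA (an NFAT core) and TGANTCA (AP-1). Each is written 5' to 3' along the strand of its gene, for Itgam chr7:128062390-128062689 (plus strand), for Itgax chr7:128129300-128129599 (plus), for Itga5 chr15:103366742-103367041 (minus) and for Itgb7 chr15:102231886-102232185 (minus).
Itgam: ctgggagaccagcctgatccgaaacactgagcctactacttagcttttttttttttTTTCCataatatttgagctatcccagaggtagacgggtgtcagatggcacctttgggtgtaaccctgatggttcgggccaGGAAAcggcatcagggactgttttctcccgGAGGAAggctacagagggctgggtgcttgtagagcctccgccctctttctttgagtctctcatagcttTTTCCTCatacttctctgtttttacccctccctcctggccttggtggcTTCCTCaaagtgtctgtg
Itgax: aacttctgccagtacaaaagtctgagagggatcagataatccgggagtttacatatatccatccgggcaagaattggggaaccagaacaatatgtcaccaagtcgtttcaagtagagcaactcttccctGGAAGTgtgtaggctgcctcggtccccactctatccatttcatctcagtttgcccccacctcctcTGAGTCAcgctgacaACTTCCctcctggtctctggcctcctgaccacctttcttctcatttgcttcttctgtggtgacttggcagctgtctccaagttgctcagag
Itga5: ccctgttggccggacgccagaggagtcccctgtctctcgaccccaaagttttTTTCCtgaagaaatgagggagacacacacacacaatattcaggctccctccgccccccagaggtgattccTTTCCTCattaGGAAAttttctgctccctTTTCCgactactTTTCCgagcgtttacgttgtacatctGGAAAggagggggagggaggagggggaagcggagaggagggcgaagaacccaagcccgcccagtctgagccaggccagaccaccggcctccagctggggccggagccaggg
Itgb7: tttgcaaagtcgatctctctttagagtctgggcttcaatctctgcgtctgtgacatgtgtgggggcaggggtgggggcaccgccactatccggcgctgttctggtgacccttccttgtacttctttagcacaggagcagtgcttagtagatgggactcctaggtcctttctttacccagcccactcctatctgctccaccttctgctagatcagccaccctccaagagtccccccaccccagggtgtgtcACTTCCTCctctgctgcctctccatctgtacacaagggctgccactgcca

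Itgam held 3 matches to GAGGAA and 3 to GGAAA, with 1 of each overlapping. Itgax held neither and had 2 matches to GGAAGT and 1 to TGANTCA. Itga5 held 6 matches to GGAAA and 1 to GAGGAA, which overlapped one of them. Itgb7 held 1 match to GAGGAA and 1 to GGAAGT, which overlapped. Over all 32851 such windows, GAGGAA was present in 28.3%, GGAAGT in 23.8%, GGAAA in 61.3% and TGANTCA in 7.81%. Among the 7 members with a window, the counts were 5, 3, 3 and 1. These matches describe letters in a window, and binding was not measured. Itgam and Itgax lie on chromosome 7 with 1 annotated gene, Gm45700, between them, and Itgal lies on the same chromosome with 50 genes between it and Itgam.

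Levels below are quantile-normalised log2(intensity + 16), except for the summed levels of marker lists. A level is comparable between arrays for 1 gene but not between genes, since each probe set has its own brightness. Median deposited intensity ran from 77.87 to 126.7 over the arrays, and 0 of 153 pairs of arrays were identical. The unstimulated EGTA array stood apart at the dim end (first percentile of intensity 3.63, at most 0.939 elsewhere). RNA integrity was 8.8 and 8.7 for the EGTA arrays at 12 and 24 h and at least 9.3 elsewhere. Cd14 followed the labels, at a level of 4.28 to 5.83 in CD14-deficient cells and 12.49 to 13.28 in all others, and the difference under LPS was -8.21 (SE 0.24, adjusted p = 1.85e-10, lower at 5 of 5 times). Nothing in the labels says that arrays came from separate cultures, so the p-values reflect the spread among these arrays alone, which may be technical.

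LPS divided the integrins into a group that rose and a group that fell, in each of the 3 conditions. Itga5, Itga4, Itgav, Itgal and Itgb1 were higher on all 15 LPS arrays than on the unstimulated array of the same condition. Itgax, Itgb2 and Itga6 were lower on all 15, and Itgam and Itgb7 were lower on all but the 2 h arrays of 1 and of all 3 conditions, respectively. Averaged over the 5 times, with the 3 conditions as replicates, 10 of the 10 genes passed limma's test at an adjusted p of 0.05, 5 higher and 5 lower, but when arrays were centred on their medians the falls of Itgam and Itgax no longer passed and that of Itgb2 turned to 0.05. LPS moved much of the transcriptome: 62.0% of the 7056 genes tested passed in either direction, 27.3% higher and 34.7% lower, so a called integrin is not unusual here. With median centring 2439 genes were higher and 1514 lower, against 1925 and 2448 in the quantile-normalised values and 921 and 3707 on the deposited scale. The median over all genes moved with the scaling from -0.05 to 0.09 and -0.32, and changes smaller than this are to be read against it.

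**Figure D1:**
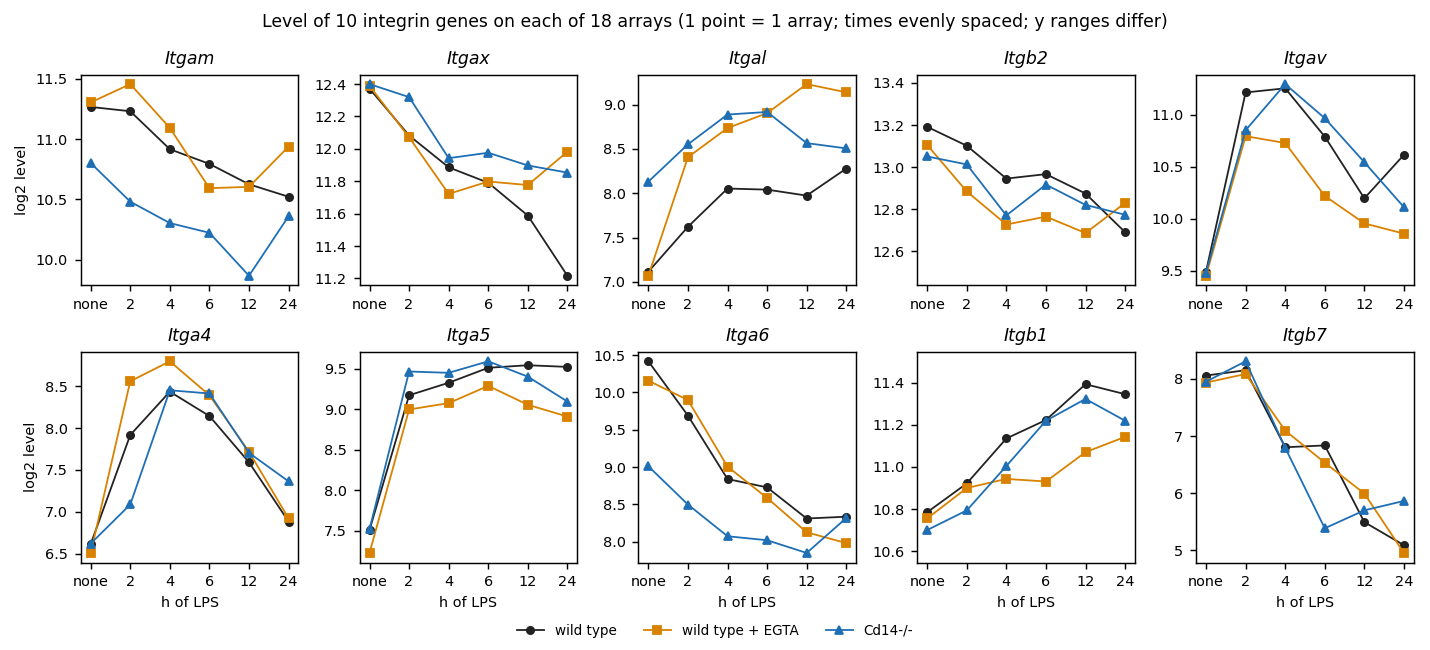
Level (log2 scale, y axis, range differing between panels) of the 10 integrin genes without LPS and after 2 to 24 h of LPS (x axis, times evenly spaced), with 1 point per array and 1 line per condition. Itga5 stays between 8.91 and 9.59 on all LPS arrays, Itga4 returns from its peak at 4 h, and Itgb7 falls to 4.95 at 24 h with EGTA.

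Itga5 (probe set 1423267_s_at) encodes alpha5, which with beta1 forms the classical fibronectin receptor. Itga5 in wild type cells was at 7.51 without LPS and at 9.17, 9.33, 9.51, 9.54 and 9.52 after 2, 4, 6, 12 and 24 h. Itga5 with EGTA was at 7.23, then 8.998, 9.08, 9.29, 9.06 and 8.91. Itga5 in CD14-deficient cells was at 7.52, then 9.47, 9.45, 9.59, 9.40 and 9.10. It was high by 2 h in every condition, held for the day, and no LPS array overlapped an unstimulated one. The rise was 1.87 ± 0.08 on the log2 scale (3.66-fold, adjusted p = 6.62e-11), and 24 h did not pass the test against 2 h (-0.04 ± 0.11, 95% interval -0.28 to 0.20, adjusted p = 0.80). The probes of this set can match more than 1 transcript, and the gene's second probe set rose by 1.22 ± 0.14 (adjusted p = 3.39e-06).

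Itga4 (1450155_at) encodes alpha4, the chain of the VCAM-1 receptor VLA-4 and, with beta7, of the gut-homing receptor. Itga4 in wild type cells was at 6.61 without LPS and at 7.92, 8.43, 8.14, 7.59 and 6.88 after LPS. Itga4 with EGTA was at 6.51, then 8.56, 8.80, 8.39, 7.72 and 6.92. Itga4 in CD14-deficient cells was at 6.62, then 7.09, 8.45, 8.41, 7.70 and 7.36. Its highest level came at 4 h in all 3 conditions, 1.82, 2.29 and 1.83 above the unstimulated level, and by 24 h it had come back to within 0.27, 0.41 and 0.74 of it. The mean rise over the 5 times was 1.31 ± 0.19 (2.48-fold, adjusted p = 2.41e-05), while the 24 h difference of 0.47 ± 0.24 did not pass (adjusted p = 0.117), though it passed with the second probe set (0.71, adjusted p = 0.0139). Between 2 and 24 h Itga4 fell by 0.80 ± 0.25 (adjusted p = 0.0163, lower in 2 of 3 conditions). That call was lost without the wild type or EGTA array at 2 or 24 h, each left out alone, where the adjusted p ran from 0.0534 to 0.103 and the fall was 0.47 at its smallest (without EGTA at 2 h). It was also lost without the EGTA arrays at 12 and 24 h (-0.56, adjusted p = 0.112). Without the CD14-deficient array at 2 h the difference was -1.22, and the 24 h difference from unstimulated cells then passed (0.47, adjusted p = 0.0144).

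Itgav (1452784_at) encodes alphaV, the chain of the vitronectin receptors that bind apoptotic cells and activate latent TGF-beta. Itgav in wild type cells was at 9.49 without LPS and at 11.21, 11.25, 10.79, 10.20 and 10.61 after LPS. Itgav with EGTA was at 9.45, then 10.79, 10.73, 10.22, 9.96 and 9.86. Itgav in CD14-deficient cells was at 9.48, then 10.85, 11.29, 10.97, 10.54 and 10.11. All LPS arrays lay above all unstimulated ones, with the highest levels at 2 or 4 h. The mean rise was 1.15 ± 0.12 (2.22-fold, adjusted p = 5.73e-07), and between 2 and 24 h the level fell by 0.76 ± 0.14 (adjusted p = 0.000576). At 24 h it was still 0.72 ± 0.15 above the unstimulated cells (adjusted p = 0.000905). Its least bright probe set, never above an array's median, showed a mean difference of 0.20 (adjusted p = 0.428), of -0.019 at 24 h, and of -0.51 from 2 to 24 h (adjusted p = 0.143).

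Itgal (1425367_at) encodes alphaL, which with beta2 forms LFA-1, the ICAM-1 receptor that T cells and dendritic cells use to hold each other. Itgal in wild type cells was at 7.11 without LPS and at 7.62, 8.05, 8.04, 7.97 and 8.28 after LPS. Itgal with EGTA was at 7.07, then 8.41, 8.74, 8.91, 9.23 and 9.14. Itgal in CD14-deficient cells was at 8.13, then 8.55, 8.89, 8.92, 8.57 and 8.51. The unstimulated CD14-deficient array lay within the range of wild type cells under LPS, and wild type LPS arrays overlapped neither the EGTA nor the CD14-deficient LPS arrays. The mean rise was 1.08 ± 0.18 (2.12-fold, adjusted p = 9.84e-05), and it was 0.72 without the unstimulated EGTA array (adjusted p = 0.00116). From 2 to 24 h Itgal rose by 0.45 ± 0.16 (adjusted p = 0.0299, higher in 2 of 3 conditions), a call lost with median centring (adjusted p = 0.0646), on the deposited scale (0.0745), without a filter (0.0503), without the EGTA arrays at 12 and 24 h (0.31, adjusted p = 0.0975) and without the wild type or EGTA array at 2 or 24 h (0.0864 to 0.131).

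Itgb1 (1452545_a_at), the beta chain of the fibronectin, laminin and VCAM-1 receptors, had unstimulated levels of 10.79 in wild type cells, 10.76 in the EGTA series and 10.70 in CD14-deficient cells. Under LPS it ran from 10.92 to 11.39, from 10.90 to 11.14 and from 10.79 to 11.32 in the same order. The shift was small and gradual, with the lowest LPS level at 2 h in every condition. Itgb1 rose by 0.36 ± 0.06 (1.28-fold, adjusted p = 8.98e-05), and from 2 to 24 h by 0.36 ± 0.07 (adjusted p = 0.00113), which did not pass with median centring (0.15, adjusted p = 0.124) or on the deposited scale (0.20, adjusted p = 0.0987). A second bright probe set of Itgb1 rose by 0.42 ± 0.06 (adjusted p = 3.28e-05). Of its other 4 probe sets, 3 never lay above an array's median. The fourth, 1427771_x_at, was above it on 16 arrays and did not pass, at 0.30 under LPS (adjusted p = 0.108), 0.14 from 2 to 24 h (adjusted p = 0.57) and 0.25 at 24 h against no LPS (adjusted p = 0.313).

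Itgb7 (1418741_at) encodes beta7, the partner of alpha4 and alphaE. Itgb7 in wild type cells was at 8.06 without LPS and at 8.15, 6.80, 6.84, 5.49 and 5.09 after LPS. Itgb7 with EGTA was at 7.94, then 8.09, 7.10, 6.53, 5.99 and 4.95. Itgb7 in CD14-deficient cells was at 7.95, then 8.31, 6.80, 5.39, 5.70 and 5.86. It was as high at 2 h as without LPS in all 3 conditions and lower on every array from 4 h on. From 2 to 24 h it fell by 2.88 ± 0.33 (7.36-fold lower, adjusted p = 1.29e-05), and 24 h minus unstimulated was -2.68 ± 0.31 (6.41-fold lower, adjusted p = 3.68e-06). Among the 10 genes this was the largest change in size in either comparison. Its late levels were under the array median, and in that range the added 16 understates a fold change. Itgb7 was above the median on 7 arrays and was highest without LPS and at 2 h. It thus passed the filter mainly through the groups where it was high. Both calls held under all 7 other settings, among them no filter.

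Itga6 (1422445_at) encodes alpha6, the chain of laminin receptors. Itga6 in wild type cells was at 10.42 without LPS and at 9.69, 8.84, 8.73, 8.31 and 8.34 after LPS. Itga6 with EGTA was at 10.16, then 9.90, 9.01, 8.59, 8.13 and 7.98. Itga6 in CD14-deficient cells was at 9.01, then 8.50, 8.07, 8.02, 7.85 and 8.32. The curves of the wild type cells with and without EGTA ran together, and the CD14-deficient curve began far below them and met them at 24 h. The mean fall was 1.31 ± 0.18 (2.48-fold lower, adjusted p = 1.83e-05). The second probe set fell by 1.26 ± 0.19 (adjusted p = 3.71e-05).

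Itgam (1422046_at) encodes alphaM, the chain of Mac-1 that takes up complement-coated particles. Itgam in wild type cells was at 11.27 without LPS and at 11.23, 10.92, 10.79, 10.62 and 10.52 after LPS. Itgam with EGTA was at 11.30, then 11.46, 11.09, 10.59, 10.60 and 10.94. Itgam in CD14-deficient cells was at 10.80, then 10.48, 10.30, 10.22, 9.87 and 10.36. All 5 CD14-deficient LPS arrays lay below every wild type and EGTA array, and the unstimulated one lay below both other unstimulated arrays. Under LPS Itgam fell by 0.46 ± 0.09 (1.37-fold lower, adjusted p = 0.000404), which did not pass with median centring (-0.17, adjusted p = 0.25).

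Itgax (1419128_at) encodes alphaX, the CD11c chain that marks dendritic cells. Itgax in wild type cells was at 12.37 without LPS and at 12.08, 11.89, 11.79, 11.59 and 11.22 after LPS. Itgax with EGTA was at 12.39, then 12.07, 11.72, 11.80, 11.78 and 11.98. Itgax in CD14-deficient cells was at 12.40, then 12.32, 11.94, 11.98, 11.90 and 11.85. The unstimulated levels were within 0.03 of each other, and the wild type array at 24 h was the lowest of all. Itgax fell by 0.53 ± 0.10 (1.44-fold lower, adjusted p = 2e-04), which did not pass with median centring (-0.19, adjusted p = 0.19), and was 0.70 ± 0.12 lower at 24 h (adjusted p = 0.000211).

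Itgb2 (1450678_at), the common beta chain of Mac-1, CD11c/CD18 and LFA-1, moved least of the 10 genes in the comparison of LPS with no LPS. Its unstimulated levels were 13.19 in wild type cells, 13.11 in the EGTA series and 13.05 in CD14-deficient cells, and its LPS levels ran from 12.69 to 13.10, from 12.69 to 12.88 and from 12.77 to 13.01. The difference was -0.26 ± 0.05 (1.20-fold lower, adjusted p = 0.000278), and with median centring it turned to 0.05 (adjusted p = 0.582). Of its alpha partners among the 10 genes, Itgal rose while Itgam and Itgax were lower. Without the unstimulated EGTA array, all 10 genes still passed the test of LPS against no LPS. In bulk RNA, fewer cells of a type and less RNA per cell cannot be told apart.

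**Figure D2:**
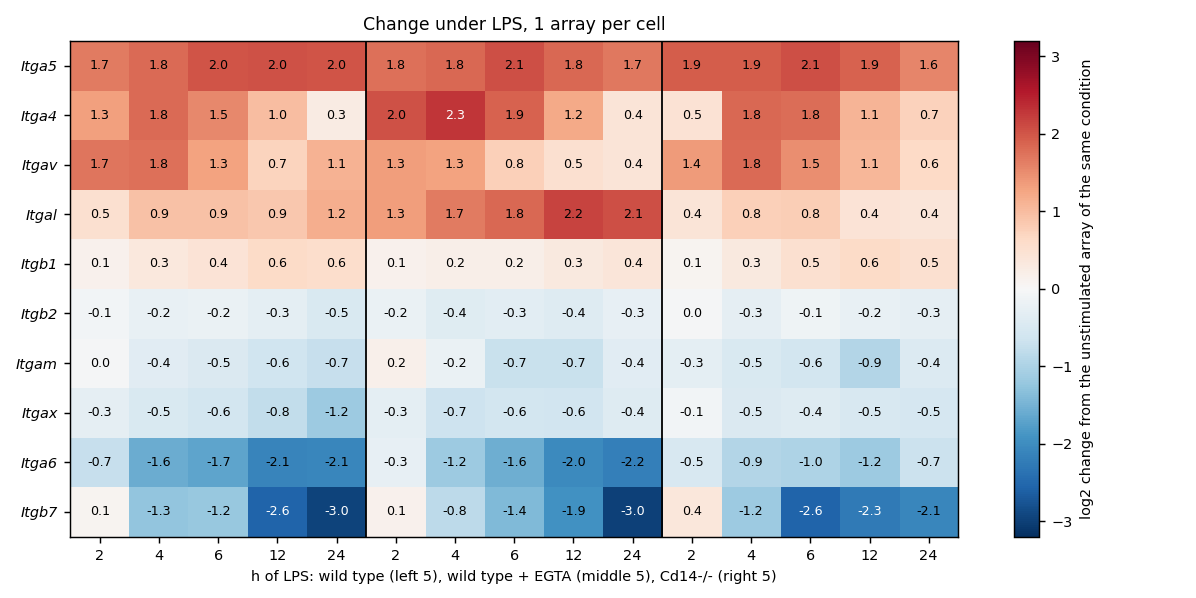
Change in log2 level from the unstimulated array of the same condition (colour and printed value) for the 10 integrin genes (rows) on the 15 LPS arrays (columns, hours of LPS within each condition). The upper 5 genes are higher on every LPS array, and Itgb7 goes from 0.4 or less above its starting level at 2 h to about -3.0 at 24 h in both wild type series; the mean fall of Itgb2 turned to 0.05 when arrays were centred on their medians.

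At 24 h, the time matched for plating, 9 of the 10 genes passed against unstimulated cells, 4 higher and 5 lower, where 52.2% of all genes tested did (26.5% higher, 25.8% lower). With median centring 7 passed, the falls of Itgam (-0.35, adjusted p = 0.0715) and Itgb2 (-0.21, adjusted p = 0.0758) being lost, and on the deposited scale 8, without Itgb1 (0.27, adjusted p = 0.0586). Between 2 and 24 h of LPS, 9 of the 10 passed, 2 higher and 7 lower, where 56.4% of all genes did (32.5% higher, 24.0% lower). The median difference between 2 and 24 h was -0.46 over the 10 genes and 0.07 over all genes tested. The genes that passed downward in that comparison were Itgb7, Itga6, Itga4, Itgav, Itgax, Itgam and Itgb2, and Itga6 with a fall of 1.15 ± 0.23 came second to Itgb7. Itgam fell by 0.45 ± 0.12 (adjusted p = 0.00665), Itgax by 0.47 ± 0.13 (adjusted p = 0.00662) and Itgb2 by 0.23 ± 0.07 (adjusted p = 0.00883). Without the wild type array at 24 h 6 of the 10 genes passed, 1 higher and 5 lower, as Itgb2 was lost with Itgal and Itga4 (Itgb2 -0.15, adjusted p = 0.0519), and the difference of Itgax was -0.27. With median centring and on the deposited scale 7 passed, 0 higher and 7 lower.

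Cells without CD14 differed in 4 alpha chains, and none of the beta chains Itgb1, Itgb2 and Itgb7 passed the test. Under LPS, with the 5 times as replicates, 4 of the 10 genes passed, Itgal and Itgax higher and Itgam and Itga6 lower, where 29.7% of the 6929 genes tested passed (17.1% higher, 12.6% lower). The share of members is near the background. Over all genes the split of 1184 higher and 874 lower became 823 and 1070 with median centring and 301 and 1058 on the deposited scale. The median difference was -0.06 over the members and 0.04 over all genes.

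Itgam was lower in CD14-deficient cells by 0.75, 0.61, 0.57, 0.76 and 0.16 at 2, 4, 6, 12 and 24 h, a mean of -0.57 ± 0.09 (1.49-fold lower, adjusted p = 0.000767, lower at 5 of 5 times). Without LPS the pair of arrays differed by -0.47. Itgal was higher by 0.93, 0.84, 0.88, 0.59 and 0.23, a mean of 0.69 ± 0.12 (1.62-fold, adjusted p = 0.00132, higher at 5 of 5), and by 1.02 without LPS. Both genes were already apart before LPS, and both gaps were narrowest at 24 h. Itga6 was lower by 1.19, 0.77, 0.71, 0.46 and 0.02, a mean of -0.63 ± 0.18 (1.55-fold lower, adjusted p = 0.0168, lower at 5 of 5), and by 1.41 without LPS. Its call was lost without the CD14-deficient array at 4 h (-0.56, adjusted p = 0.0550), and its second probe set passed (-0.70 ± 0.18, adjusted p = 0.0127). The early difference of Itga6 (2, 4 and 6 h) minus the late one (12 and 24 h) was -0.65 ± 0.23, which did not pass (adjusted p = 0.262).

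Itgax was higher in CD14-deficient cells by 0.24, 0.06, 0.19, 0.31 and 0.64, a mean of 0.29 ± 0.10 (1.22-fold, adjusted p = 0.0444, higher at 5 of 5). This call was lost on leaving out any 1 of 11 of the 15 arrays, with adjusted p-values up to 0.0952, and with median centring (0.19, adjusted p = 0.222), on the deposited scale (0.13, adjusted p = 0.472), without a filter (0.0758) or without an intensity trend (0.0664). Without the wild type array at 24 h the difference was 0.17. Its difference without LPS was 0.03. The other 6 genes did not pass: Itgb2 had a difference of -0.06 (95% interval -0.17 to 0.05), Itgav of -0.06 (-0.30 to 0.18) and Itga5 of -0.01 (-0.20 to 0.17). Itga4 had 0.01 (-0.41 to 0.43), with the CD14-deficient array 0.83 below wild type at 2 h and 0.48 above it at 24 h. Itgb7 had -0.06 (-0.62 to 0.50), and at 6 h its CD14-deficient array was 1.45 below wild type. Itgb1 had -0.09 (-0.22 to 0.03), lower at 5 of 5 times, and it passed with its second bright probe set (-0.18, adjusted p = 0.0439), with median centring (-0.20, adjusted p = 0.0234) and on the deposited scale (-0.27, adjusted p = 0.0179).

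**Figure D3:**
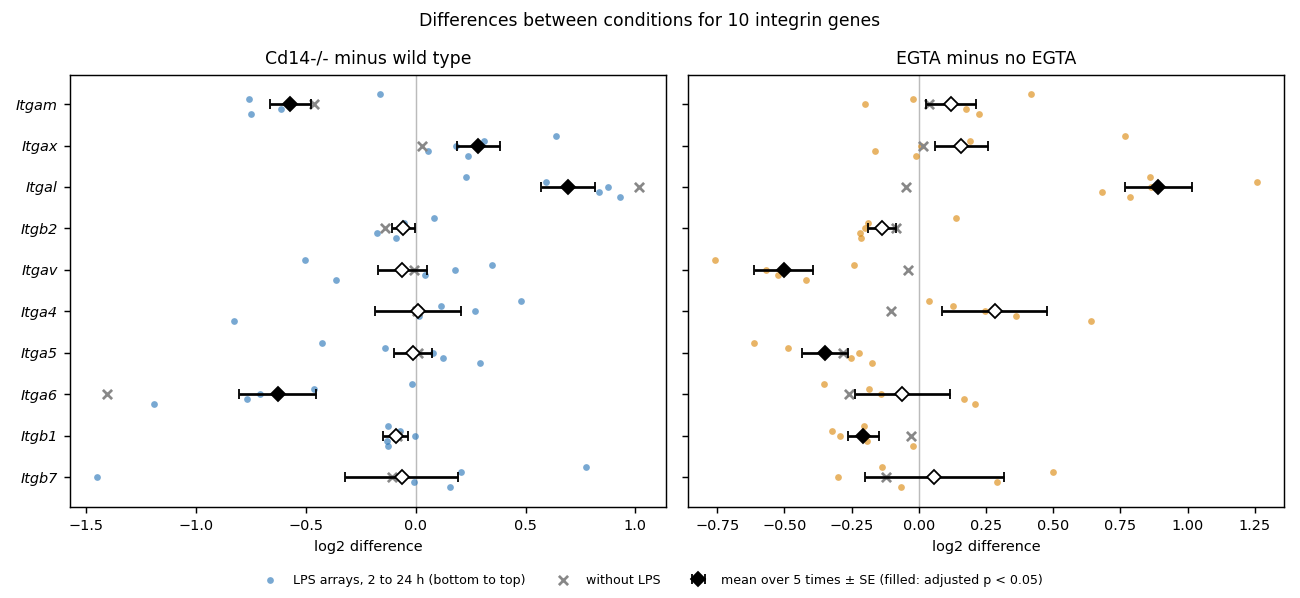
Log2 difference (x axis) of CD14-deficient from wild type cells (left) and of EGTA from no EGTA (right) for each integrin gene, with 1 dot per LPS time, a cross for the unstimulated pair of arrays, and a diamond with its standard error for the mean over 5 times (filled where adjusted p is under 0.05). Itgal lies to the right of 0 in both panels at all LPS times, while its cross is at 1.02 on the left and -0.05 on the right.

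With EGTA, Itgal was again higher, and the fibronectin and vitronectin receptor chains Itga5, Itgb1 and Itgav were lower. This comparison and that of CD14-deficient cells share the wild type arrays, so they are not independent. Under LPS 4 of the 10 genes passed, Itgal higher and Itgav, Itga5 and Itgb1 lower, where 13.6% of all genes tested passed (7.39% higher, 6.22% lower). The median difference was -0.0015 over the members and 0.01 over all genes. The split over all genes was 512 higher and 431 lower, and on the deposited scale 469 and 182. The later EGTA arrays had the lowest RNA integrity, so values without the EGTA arrays at 12 and 24 h are given beside each call of the 10 genes. For single genes of the lists below they are not given.

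Itgal was higher with EGTA by 0.79, 0.68, 0.86, 1.26 and 0.86 at 2, 4, 6, 12 and 24 h, a mean of 0.89 ± 0.12 (1.86-fold, adjusted p = 0.000774, higher at 5 of 5), and by 0.68 without the later EGTA arrays (adjusted p = 0.00896). Without LPS the EGTA array differed from wild type by -0.05. The EGTA difference of Itgal under LPS exceeded that without LPS by 0.94 ± 0.30, which did not pass over all genes (unadjusted p = 0.00898, adjusted p = 0.155) except with median centring (1.08, adjusted p = 0.0461). Ordered by mean level under LPS, wild type cells were at 7.99, CD14-deficient cells at 8.69 and EGTA cells at 8.88, and the last 2 did not differ past the test (-0.20 ± 0.12, adjusted p = 0.249).

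Itgav was lower with EGTA by 0.42, 0.53, 0.57, 0.24 and 0.76, a mean of -0.50 ± 0.11 (1.42-fold lower, adjusted p = 0.00993, lower at 5 of 5), and a second probe set gave -0.73 ± 0.10 (adjusted p = 0.000491). Its least bright probe set did not pass (-0.64, adjusted p = 0.0692). Without the later EGTA arrays the difference was -0.51 and the adjusted p 0.0622. Itga5 was lower by 0.18, 0.25, 0.22, 0.49 and 0.61, a mean of -0.35 ± 0.09 (1.27-fold lower, adjusted p = 0.0189, lower at 5 of 5). Its call was lost without the later EGTA arrays (-0.31, adjusted p = 0.133), without the wild type (0.0658) or the EGTA (0.0603) array at 12 h, on the deposited scale (-0.25, adjusted p = 0.181) and with the second probe set (-0.37, adjusted p = 0.104). Its unstimulated EGTA array was already 0.28 below wild type. Itgb1, the partner chain of both, was lower by 0.02, 0.19, 0.29, 0.32 and 0.20, a mean of -0.21 ± 0.06 (1.15-fold lower, adjusted p = 0.033, lower at 5 of 5). That call was lost without any 1 of 8 arrays, with adjusted p-values up to 0.109, without the later EGTA arrays (-0.17, adjusted p = 0.178) without an intensity trend (0.0552), on the deposited scale (-0.16, adjusted p = 0.205) and with the probe set 1427771_x_at (-0.26, adjusted p = 0.263). All 3 genes that passed downward had risen under LPS in every condition, as had Itgal, which passed upward, and Itga4, which did not pass. The EGTA difference under LPS minus that without LPS did not pass limma's test for Itgav (adjusted p = 0.453), Itga5 (0.93) or Itgb1 (0.614).

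The 6 other genes did not pass with EGTA. Itga4 was higher at 5 of 5 times, by 0.64, 0.36, 0.25, 0.13 and 0.04, a mean of 0.28 ± 0.20 (95% interval -0.14 to 0.71, adjusted p = 0.379). Itgb2 had -0.14 ± 0.05 (adjusted p = 0.0982), lower at 4 of 5 times, and passed without the later EGTA arrays (-0.19, adjusted p = 0.0454) and without the wild type (0.0172) or the EGTA (0.0163) array at 24 h. Itgam had 0.12 (95% interval -0.08 to 0.32) and Itgax 0.16 (-0.06 to 0.37), where 0.77 came at 24 h. Itga6 had -0.06 (-0.44 to 0.32), and Itgb7 0.06 (-0.50 to 0.62). On the unstimulated arrays, 0 of the 10 genes differed by 2-fold or more between the EGTA array and wild type, with differences from -0.28 to 0.04, where 2.52% of genes tested did. Between CD14-deficient and wild type cells without LPS it was 2 of 10, Itgal and Itga6, where 2.03% of genes tested did. Each of these is 1 array against 1, with no test.

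Set against each other under LPS, CD14-deficient and EGTA cells differed in 4 of the 10 genes, where 31.3% of all genes tested passed (16.8% higher and 14.4% lower in CD14-deficient cells). Itgav (0.44 ± 0.11, adjusted p = 0.00881) and Itga5 (0.34 ± 0.09, adjusted p = 0.0109) were higher in CD14-deficient than in EGTA cells, and neither passed on the deposited scale (0.21 and 0.13, adjusted p = 0.158 and 0.423). The call of Itga5 was also lost without the later EGTA arrays (0.29, adjusted p = 0.0815) and with its second probe set (0.09, adjusted p = 0.664), and that of Itgav with its least bright probe set (0.41, adjusted p = 0.175). Itgax passed without the later EGTA arrays (0.28, adjusted p = 0.0386) or the EGTA array at 24 h (0.24, adjusted p = 0.0391), where Itgb2 passed too (0.13, adjusted p = 0.037), and Itgb1 passed without EGTA at 2 h (0.17, adjusted p = 0.0359). Itgam was lower (-0.69 ± 0.09, adjusted p = 0.000173, at 5 of 5 times), as was Itga6 (-0.57 ± 0.18, adjusted p = 0.0265, at 4 of 5), a call lost without any 1 of 6 arrays, with adjusted p-values up to 0.0832. Over all genes 1165 were higher and 1001 lower, against 752 and 1269 with median centring and 262 and 1912 on the deposited scale. On the order of levels, Itgam was lowest in CD14-deficient cells (mean 10.25), with wild type (10.82) and EGTA cells (10.94) not told apart by the test. Itgav was lowest with EGTA (10.31), with CD14-deficient (10.75) and wild type cells (10.81) not told apart.

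Whether the condition differences changed with time or with LPS was tested by interaction terms, and 0 of the 10 genes passed in any of the 4 tests of limma. Before adjustment, 4 genes had p under 0.05 for a CD14 difference that differed between early and late times, 2 for the EGTA difference, 0 for a CD14 difference that differed between LPS and no LPS, and 1 for the EGTA difference. At an adjusted p of 0.05, where 0 of the 10 genes passed, the background is given here. In the same order it was 0.0433% of genes (0.0144% higher, 0.0289% lower), 0%, 0.156% (0.0425% higher, 0.113% lower) and 1.66% (0.879% higher, 0.779% lower). The share of all genes at the unadjusted threshold was not counted, so the unadjusted counts of the 10 genes have no background beside them. The smallest adjusted p among them were 0.145 for the CD14 difference of Itga5 (0.45 ± 0.12 higher early than late), 0.155 for the EGTA difference of Itgal with against without LPS, given above, and 0.168 for the EGTA difference of Itgax (-0.53 ± 0.14, unadjusted p = 0.00286). The latter passed without the wild type or the EGTA array at 12 h, where its adjusted p reached down to 0.0237. The curves of Itgax drew apart at 24 h, where wild type cells were lowest.

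Across the 18 arrays, the levels of the members followed each other in part, as arrays of 1 time course do. The closest pairs were Itgam with Itga6 (Pearson r = 0.854) and Itgb7 with Itga6 (0.784), and the most opposed was Itgb1 with Itgb7 (-0.861). Outside the family, the 2 genes nearest to Itga5 were the chemokine Ccl3 (0.987) and the prostaglandin synthase Ptgs2 (0.980). Those nearest to Itgal were the scavenger receptor Marco (0.931) and the formyl peptide receptor Fpr2 (0.828), and those nearest to Itgax were the lectin receptor Clec4a2 (0.960) and Emc2 (0.945). Itgam was nearest to Dnajc15 (0.944) and the neutrophil collagenase Mmp8 (0.942), Itgav to Lztfl1 (0.946) and the chemokine Ccl4 (0.943), and Itga4 to Kpna3 (0.947) and Rab38 (0.946). For Itga6 they were the costimulatory receptor Cd28 (0.917) and Plxdc2 (0.916), for Itgb1 the NADPH oxidase chain Cybb (0.958) and Rai14 (0.947), for Itgb7 Iqgap2 (0.946) and Fkbp5 (0.944), and for Itgb2 Abhd12 (0.911) and Hfe (0.901). These are descriptions over arrays that share the LPS course, with no test.

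Of 16 other integrin chains, 11 were measured and 3 passed the filter. Of these 1 was higher and 2 lower under LPS, beside 27.3% and 34.7% of all genes. Under LPS Itgae, the alphaE chain that pairs with beta7, fell by 2.37 ± 0.19 (adjusted p = 6.07e-08), and 24 h minus 2 h was -2.72 ± 0.28 (adjusted p = 4.53e-06), the interval over which its partner Itgb7 fell. Itgb5, a beta partner of alphaV, fell by 1.22 ± 0.11 (adjusted p = 2.33e-07) while Itgav rose, and the platelet chain Itga2b rose by 0.40 ± 0.14 (adjusted p = 0.0193). On the deposited scale 0 of the 3 passed as higher under LPS, so the call of Itga2b was lost there. 0 of the 3 passed in CD14-deficient against wild type cells (1 lower on the deposited scale), where 29.7% of all genes did. With EGTA it was 0 as well, where 13.6% of all genes did, and 3 genes are too few to set against these shares. Itgb5 had the smallest p of these in both comparisons, with adjusted values of 0.0874 and 0.339.

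Ligands of integrins were measured for 34 of 37 listed genes, and 13 passed the filter. Under LPS 3 of the 13 rose and 5 fell, beside 27.3% and 34.7% of all genes, and the VLA-4 ligand Vcam1 (2.38 ± 0.13, adjusted p = 5.13e-10) and the LFA-1 ligand Icam1 (2.24 ± 0.09, adjusted p = 1.13e-11) rose beside their receptor chains Itga4 and Itgal. Cdh1, the alphaE ligand E-cadherin, fell by 2.78 ± 0.24 (adjusted p = 1.08e-07). From 2 to 24 h 0 rose and 8 fell, beside 32.5% and 24.0% of all genes, led by the alpha5 ligand fibronectin Fn1 (-3.04 ± 0.22, adjusted p = 3.09e-07). In CD14-deficient cells 4 were higher and 2 lower, beside 17.1% and 12.6% of all genes, among them the LFA-1 ligand F11r (0.88 ± 0.13, adjusted p = 0.00041), Thbs1 (-0.68 ± 0.15, adjusted p = 0.00455) and Vcam1 (-0.54 ± 0.13, adjusted p = 0.00795). With EGTA 3 were higher and 1 lower, beside 7.39% and 6.22% of all genes, among them F11r (1.10 ± 0.13, adjusted p = 0.000245) and Icam1 (0.45 ± 0.06, adjusted p = 0.000949). The EGTA counts of the ligands were also 3 and 1 without the later EGTA arrays.

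Genes that activate integrins or link them to actin were listed in 36, measured in 32 and tested in 28. In CD14-deficient cells 12 of the 28 were higher and 2 lower, beside 17.1% and 12.6% of all genes, with a list median of 0.15 beside 0.04 over all genes. The split depended on the scaling, with 7 higher and 5 lower under median centring (list median 0.07) and 2 higher and 4 lower on the deposited scale (0.00035). The integrin-binding filamin Flna (0.49 ± 0.07, adjusted p = 0.000452) and Rassf5, the RAPL protein that couples RAP1 to LFA-1 (0.59 ± 0.10, adjusted p = 0.00103), were among the higher ones. Under LPS 9 rose and 13 fell, beside 27.3% and 34.7% of all genes (9 and 6 with median centring, 3 and 16 on the deposited scale), and Rassf5 fell by 1.47 ± 0.10 (adjusted p = 5.31e-09) while Itgal rose. With EGTA 5 were higher and 3 lower, beside 7.39% and 6.22% of all genes (2 and 0 on the deposited scale and without the later EGTA arrays), including Rassf5 (0.46 ± 0.10, adjusted p = 0.0108), the RAP1 GTPase Rap1a (0.26 ± 0.06, adjusted p = 0.0166) and the actin cross-linker Actn4 (-0.26 ± 0.06, adjusted p = 0.0101). As 0 were lower under those 2 settings, the call of Actn4 was lost in both.

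Signalling kinases and adaptors of integrins were listed in 22, measured in 18 and tested in 17. Under LPS 9 of the 17 rose and 6 fell, where 62.0% of all genes passed (9 and 3 with median centring, 4 and 6 on the deposited scale), with Src at 1.61 ± 0.16 (adjusted p = 4e-07) and the Rac activator Dock2 at -0.75 ± 0.07 (adjusted p = 4.07e-07). In CD14-deficient cells 4 were higher and 0 lower, where 29.7% of all genes passed, led by the phosphoinositide kinase Pik3cg (1.45 ± 0.07, adjusted p = 7.32e-08). That split became 3 and 1 with median centring and 2 and 2 on the deposited scale. With EGTA 3 were higher and 1 lower, where 13.6% of all genes passed, led by the kinase Fgr (0.63 ± 0.11, adjusted p = 0.00313). The EGTA counts were 3 and 0 on the deposited scale and 2 and 0 without the later EGTA arrays. Of 17 listed membrane partners 15 were tested. Under LPS 5 were higher and 7 lower, beside 27.3% and 34.7% of all genes. In CD14-deficient cells 2 were higher and 1 lower, beside 17.1% and 12.6%. With EGTA 1 was higher and 4 lower, beside 7.39% and 6.22%. With median centring the partner counts were 7 and 4 under LPS and 0 and 3 in CD14-deficient cells. The EGTA counts of these partners were 2 and 2 without the later EGTA arrays and 1 and 1 on the deposited scale. The matrix protease Mmp14 stood first by p in all 3 comparisons, at 2.61 ± 0.09 under LPS, -0.49 ± 0.07 in CD14-deficient cells and 0.40 ± 0.07 with EGTA.

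**Figure D4:**
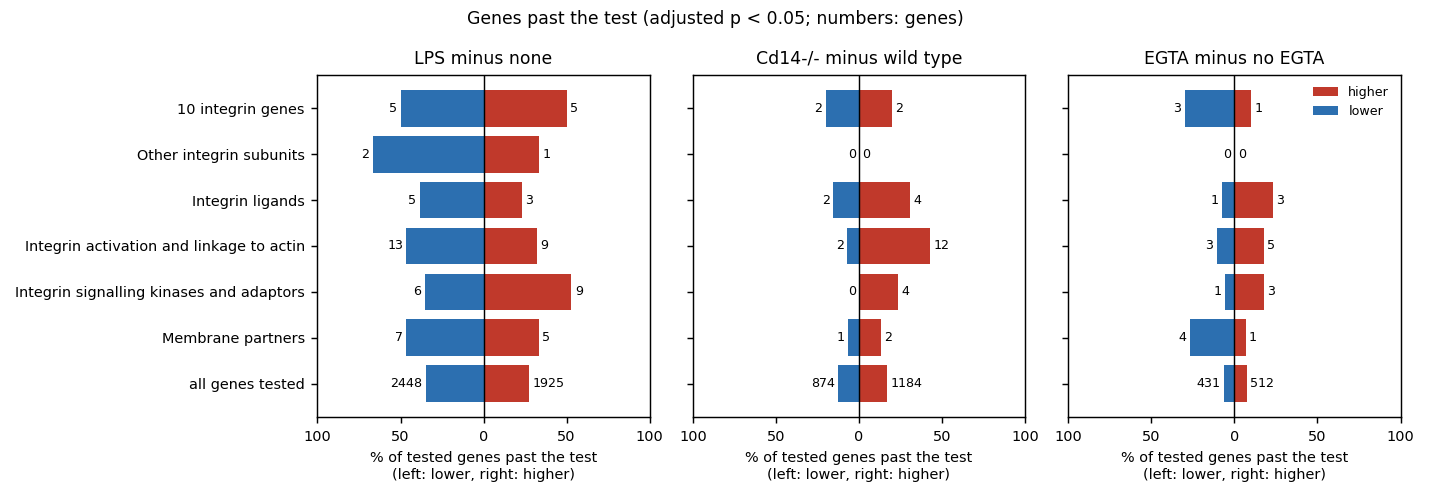
Share of tested genes (x axis, %) that passed the test higher (right) or lower (left) for the 10 integrin genes, 5 lists of related genes and all genes tested, in 3 comparisons; printed numbers are genes. For integrin activation and linkage to actin, 12 of 28 genes were higher and 2 lower in CD14-deficient cells (7 and 5 with median centring, 2 and 4 on the deposited scale), and the fall of Itgb2 counted under LPS turned to 0.05 with median centring.

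Markers of other cell types moved with some of these results, and their part in them was not tested. Their counts stand beside the shares over all genes, which were 17.1% higher and 12.6% lower in CD14-deficient cells, 7.39% and 6.22% with EGTA, 27.3% and 34.7% under LPS and 32.5% and 24.0% from 2 to 24 h. Summed levels of lists are log2 of summed deposited intensities, which were not normalised between arrays. On that scale trimmed means under LPS were 330.5 to 381.3 in CD14-deficient cells, 369.4 to 428.6 in wild type and 378.2 to 466.5 with EGTA. Differences in summed level are to be read against this. Of 12 macrophage markers 11 were tested (Vsig4 was never above an array's median), and in CD14-deficient cells, where Itgam and Itga6 were lower and Itgal higher, 7 were lower and 1 higher. The summed level of that list under LPS was 14.26 to 15.01 (log2) in CD14-deficient cells, 14.79 to 15.32 in wild type and 15.01 to 15.19 with EGTA, where 4 were higher and 0 lower (2 and 0 without the later EGTA arrays). The higher one was Marco (1.67 ± 0.13 without CD14 and 1.29 ± 0.13 with EGTA), the gene nearest to Itgal. Of 12 granulocyte markers 11 were tested (Cxcr2 never above the median), of which 2 rose and 9 fell from 2 to 24 h of LPS. Over the same interval 2 of the 10 integrins passed as higher and 7 as lower. In CD14-deficient cells 5 of them were higher and 2 lower, and the summed level under LPS was 13.84 to 15.24 in wild type, 13.86 to 15.28 with EGTA and 14.27 to 15.13 in CD14-deficient cells. Of 5 megakaryocyte and platelet markers 3 were tested, with Gp9 and Itgb3 never above the median. In CD14-deficient cells, where Itga6 was lower, 1 of the 3 was lower, Pf4 (-1.21 ± 0.21, adjusted p = 0.00115), and 2 did not pass. The summed level of that list under LPS was 10.18 to 11.58 in CD14-deficient cells, 11.52 to 12.08 in wild type and 11.54 to 12.16 with EGTA. Of 6 mast cell and basophil markers 4 were tested, 2 lower in CD14-deficient cells and 2 lower with EGTA, with Fcer1a and Ms4a2 never above the median. The dendritic cell markers were present, 8 of 9 tested, of which 4 were higher and 0 lower in CD14-deficient cells and 1 higher with EGTA (0 without the later EGTA arrays). The 6 measured markers of T and NK cells and the 4 of B16 melanoma cells were never above an array's median. Of 4 B cell markers 1 was tested, Blnk, which rose under LPS (1.46 ± 0.10, adjusted p = 7.43e-09) and was lower with EGTA (-0.40 ± 0.10, adjusted p = 0.0189). The EGTA call of Blnk was lost without the later EGTA arrays (-0.28). In CD14-deficient cells Blnk did not pass (-0.26, adjusted p = 0.0657), but it passed as lower with median centring (-0.36) and on the deposited scale (-0.43). Of 3 plasmacytoid dendritic cell markers 2 were tested (Ly6d was never above the median), and Bst2 (-0.56 ± 0.07, adjusted p = 0.000115) and Tcf4 (-0.43 ± 0.10, adjusted p = 0.00811) were lower in CD14-deficient cells and rose under LPS (1.91 ± 0.07 and 1.30 ± 0.11), while neither passed with EGTA.

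Against unstimulated cells all 10 integrins passed, beside 27.3% of all genes tested that were higher and 34.7% that were lower. In that comparison LPS arrays had 2 macrophage markers higher and 7 lower, 2 granulocyte markers higher and 9 lower, 3 dendritic cell markers higher and 4 lower, 0 mast cell markers higher and 1 lower, and 1 megakaryocyte marker each way. With median centring the macrophage counts were 3 and 5, the granulocyte counts 2 and 7, and the dendritic cell counts 4 and 3. On the deposited scale these were 1 and 7, 2 and 9, and 2 and 4. The mast cell counts were then 0 and 3 and the megakaryocyte counts 0 and 1.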

How the data were processed

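RNA of 18 samples was measured on 1 Affymetrix array each. The authors deposited 1 linear intensity for each probe set and array, made with MAS5 per the submitters' processing notes. The MAS5 version is not given in the sources used here, nor is its scaling. MAS5 subtracts mismatch signal, which makes dim values noisy. Trimmed means of the arrays ran from 330.5 to 472.3, so log2(value + 16) was quantile-normalised. Probe sets were named through the platform annotation, 20393 of 22690 with 1 gene. Genes above their array's median on at least 2 fitted arrays were tested (6929 over the 15 LPS arrays, 7056 over all 18).

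Fits used limma 3.58.1 in R 4.3.3 (lmFit, eBayes with an intensity trend), with Benjamini-Hochberg adjustment over all tested genes and a threshold of 0.05. Conditions were compared with time as a block (8 residual degrees of freedom, with the 5 times as replicates), and LPS with condition as a block (10). Early (2, 4 and 6 h) against late (12 and 24 h) and LPS against no LPS differences were interaction terms (6 and 8). The lone unstimulated array of a condition is assumed there to vary like the others. Errors are standard errors. Steps were tested on simulated data. Named genes are the members, Cd14, the 2 genes nearest to each member by Pearson correlation over 18 arrays, and up to 3 genes of smallest p per list. The members and lists were chosen with earlier results of these data known. Promoters came from a RefSeq table. Alternatives were other scalings, pseudocounts of 1 and 64, no filter, no trend, other probe sets and left-out arrays. Recounting the gene lists and markers under other scalings and without the later EGTA arrays was chosen after seeing the data. The number of arrays limits the precision.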

Additional observations from a re-analysis of the deposited data

How the results depend on the processing

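Each result was recomputed under 7 settings, with other probe sets, and without each array in turn, except for single members in the interaction terms. There a member was recomputed only if its unadjusted p was low, so the values for members that did not pass are in part selected by p. Of 966 alternative values for members that passed, 892 kept direction and side of the threshold, 72 no longer passed and 2 reversed. Of 695 for members that did not pass, 647 were unchanged in this sense, 15 passed and 33 reversed. The number of arrays and the brightness of Itgb7 and Itga4, near the array median, limit what can be told apart. The cause of the following moves was not tested.

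On the deposited scale, genes passing went from 2058 to 1359 for CD14 against wild type under LPS, from 3 to 10 for its early against late difference, from 0 to 14 for that of EGTA, from 11 to 20 for the CD14 difference with against without LPS, and from 117 to 29 for that of EGTA. Integrins passing went from 4 to 2 both for EGTA against no EGTA and for CD14-deficient against EGTA cells. With median centring, the early against late EGTA count was 2, and the EGTA count with against without LPS was 760 genes (702 higher, 58 lower, with a median over all genes of 0.33) and 1 integrin (Itgal). A pseudocount of 1 gave 5 genes for early against late CD14, and one of 64 gave 14, with 2 for EGTA and 74 for EGTA with against without LPS. Without a filter the early against late CD14 count was 0 and the CD14 count with against without LPS was 5, and without the trend the latter was 7. Without the EGTA arrays at 12 and 24 h, EGTA against no EGTA gave 461 genes in place of 943 and 2 integrins, and EGTA with against without LPS gave 50. Early against late differences could not be fitted there. The split at 24 h against unstimulated went from 1867 higher and 1817 lower to 1995 and 1287 with median centring and 728 and 2792 on the deposited scale. From 2 to 24 h it went from 2250 and 1660 to 1690 and 2177, and to 1642 and 1609.

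Leaving out 1 array at a time, genes passing ran from 521 to 1075 for EGTA (521 without the EGTA array at 12 h, 523 without EGTA 6 h, and 573, 580 and 551 without the wild type array at 4, 6 and 12 h). They ran from 0 to 59 and from 0 to 76 for the early against late CD14 and EGTA differences, from 3 to 39 for CD14 with against without LPS, and from 52 to 153 for EGTA. Integrins passing ran from 2 to 4 for CD14 (2 without the CD14-deficient array at 4 h), from 2 to 4 for EGTA (2 without the wild type or EGTA array at 12 h), and from 0 to 1 for the early against late EGTA difference (1, Itgax, without either 12 h array).

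Directions also turned. For CD14 against wild type, Itga4 (0.01) was -0.0065 with median centring, -0.074 on the deposited scale and -0.16 with its second probe set. Leaving out arrays gave -0.14 to 0.26 for Itga4, -0.14 to 0.027 for Itgav, -0.075 to 0.070 for Itga5 and -0.30 to 0.24 for Itgb7. For EGTA, Itga6 (-0.06) was 0.037 on the deposited scale, 0.21 without the later EGTA arrays, 0.23 with its second probe set and -0.20 to 0.089 without single arrays, where Itgb7 ran from -0.031 to 0.28. For CD14-deficient against EGTA cells, the deposited scale gave -0.057 for Itgax, -0.075 for Itgb2 and -0.11 for Itgb1, Itgal was 0.0095 without the later EGTA arrays, and Itgb7 ran from -0.36 to 0.18. Itga5 between 2 and 24 h was 0.23 with its second probe set and -0.18 to 0.081 without single arrays. Of differences that had passed, Itgb2 under LPS was 0.050 with median centring, and Itgav at 24 h (0.72) was -0.019 with its least bright probe set.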
